A study of Mus musculus with 4 samples.

Results

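CTCF, a DNA-binding protein with many zinc fingers, recognises an extended motif and, together with cohesin, holds the bases of many chromatin loops. Loop bases tend to carry motifs that face each other, and CTCF sites usually come in neighbourhoods along a chromosome. The sites described here are the exceptions: summits of CTCF peaks in mouse gastrocnemius, the large calf muscle, that lay more than 150 kb from the nearest other summit on both sides. They were chosen by the distances between summits in the conservative peak list, and 858 of the 41000 autosomal summits met the rule. The remaining 40142 summits are called the other summits.

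Chromatin was immunoprecipitated with an antibody to CTCF from the tissue of adult female B6CASTF1/J mice, a hybrid of C57BL/6J and CAST/EiJ, at 2 months of age. All 4 libraries share this strain, sex, age and tissue and fall into pool E and pool F. Each pool combines 2 gastrocnemius samples and has 2 technical replicates, which were merged before peaks were called. There was no treated or mutant group, and a whole muscle also holds blood vessel, connective tissue, nerve and satellite cells, so a site cannot be assigned to the muscle fibre. No value below has a spread between animals: intervals of shares are 95% Wilson intervals, or Newcombe intervals for differences, and cover counting error over summits only. Intervals of odds ratios are 95% intervals from a regression over summits with errors clustered by autosome. Read depth was unknown. Coordinates are on mm10, and sequences are those of the mm10 reference, which is of C57BL/6J, so a CAST/EiJ allele may differ from the letters shown.

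Among the 858 isolated summits, the best CTCF motif match was exact at 119 (13.9%). It had 1 mismatch at 315 (36.7%) and 2 at 267 (31.1%), and 157 summits had no match. Some sequences, mostly with exact matches, are shown first because they carry the comparison of sequence with strength. A match was a stretch of 14 bases with at most 2 mismatches to the core CTCF consensus, on either strand, centred within 50 bp of the summit. Each sequence below is printed on the strand of the motif with the 14 bases in capitals and 15 bases to each side, and is named by the nearest protein-coding gene. The first 6 are the strongest isolated summits with an exact match outside genes' exons and starts, with strengths (the authors' score per peak) of 592.7, 557.1, 556.7, 550.3, 548.3 and 541.6 in the order shown.
St3gal1, chr15:67434478-67434521, minus strand: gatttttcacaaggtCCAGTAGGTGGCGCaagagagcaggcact
Ebf1, chr11:45008287-45008330, minus strand: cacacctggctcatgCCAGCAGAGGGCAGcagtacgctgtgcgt
Tle4, chr19:15035745-15035788, minus strand: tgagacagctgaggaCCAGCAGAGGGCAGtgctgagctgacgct
Meis2, chr2:115855944-115855987, plus strand: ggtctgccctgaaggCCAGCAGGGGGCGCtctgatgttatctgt
Samd12, chr15:54070150-54070193, plus strand: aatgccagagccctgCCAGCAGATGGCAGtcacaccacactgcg
Brms1l, chr12:56058650-56058693, plus strand: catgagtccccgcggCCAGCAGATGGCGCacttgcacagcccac

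The next 3 are the weakest isolated summits with an exact match, at 49.91, 50.28 and 67.22. The 14 bases at the St3gal1 site and the Prox1 site are identical, while the strengths of those peaks were 592.7 and 67.22.
Sox11, chr12:27849755-27849798, plus strand: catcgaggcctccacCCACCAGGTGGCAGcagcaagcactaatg
Grm3, chr5:9954816-9954859, plus strand: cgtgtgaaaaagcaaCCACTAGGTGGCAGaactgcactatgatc
Prox1, chr1:190248635-190248678, plus strand: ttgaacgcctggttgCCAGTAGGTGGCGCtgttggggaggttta

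The 3 isolated summits farthest from any other summit, among those with a match, come next. They are isolated from summits of the conservative list, not from other motifs. Within 150 kb they had 1, 4 and 1 candidates of the ranked list, to which no threshold had been applied, in the order shown. The site near Olfr1177-ps, inside an olfactory receptor cluster, had no other summit for 1892 kb to the left and 2118 kb to the right, carried an exact match and had a strength of 268.4. The site in an intron of Cntnap5b, a contactin-associated protein gene, was 1882 and 3567 kb from its neighbours, with 2 mismatches and a strength of 101.6. The site whose nearest protein-coding gene is Gm10800 was 1771 and 1922 kb from them, with 1 mismatch and a strength of 271.3.
Olfr1177-ps, chr2:88356461-88356504, plus strand: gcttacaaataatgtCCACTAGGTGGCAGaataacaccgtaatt
Cntnap5b, chr1:100232086-100232129, minus strand: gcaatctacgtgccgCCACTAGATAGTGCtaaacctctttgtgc
Gm10800, chr2:99237129-99237172, plus strand: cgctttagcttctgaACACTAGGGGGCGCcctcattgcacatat

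The other 2 of the 5 most isolated summits lay between genes. The first was 22215 bp from the start of the lincRNA Gm49128 and 370398 bp from the nearest protein-coding start, that of Cdh9, a cadherin gene, with neighbours at 2680 and 1722 kb, 2 mismatches and a strength of 126.4. The second was 3609 bp from the start of the pseudogene Nudc-ps1 and 70954 bp from the nearest protein-coding start, that of Unc5d, a netrin receptor gene, with neighbours at 1611 and 1550 kb, no match and a strength of 92.34.

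Distance to the nearest summit, which the rule used, had a median of 223 kb among isolated summits (quartiles 177 and 329) and 9.20 kb among other summits. The 5 members just inside the threshold had their nearest summit at 150155 to 151130 bp and strengths from 60.20 to 556.8. The 5 summits just outside had it at 149228 to 149955 bp and strengths from 68.56 to 595.8. Some isolated summits were next to each other in order: 330 had no isolated summit next in order, 125 runs held 2, 44 held 3, and the 3 longest runs held 6. The rule favours such runs, since a summit next to a member already has a gap over 150 kb on that side. For 13 members a neighbour existed on 1 side only, the other side being a chromosome end, and 14 had at least 10% unknown bases within 150 kb. The density ranged from 0.218 isolated summits per Mb of known sequence on chromosome 17 to 0.462 on chromosome 12.

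Isolated summits were weaker than other summits, as measured by the authors' score on the same peaks. The median strength was 170.1 (quartiles 97.96 and 290.7) against 249.8 (116.9 and 437.9), and it was lower among isolated summits in 19 of 19 autosomes. When all autosomal summits were split into 5 equal classes of strength, the strongest class held 42 isolated summits, 4.90% (3.64 to 6.55) of them, and 20.3% of other summits. The weakest 3 classes held 26.5%, 26.3% and 27.3% of isolated summits. The strengths nevertheless reached 635.9, and 18 isolated summits (2.10%) were among the strongest 10% of all. Strength comes from the peaks on which the rule was run, so these values are a description with no test.

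**Figure D1:**
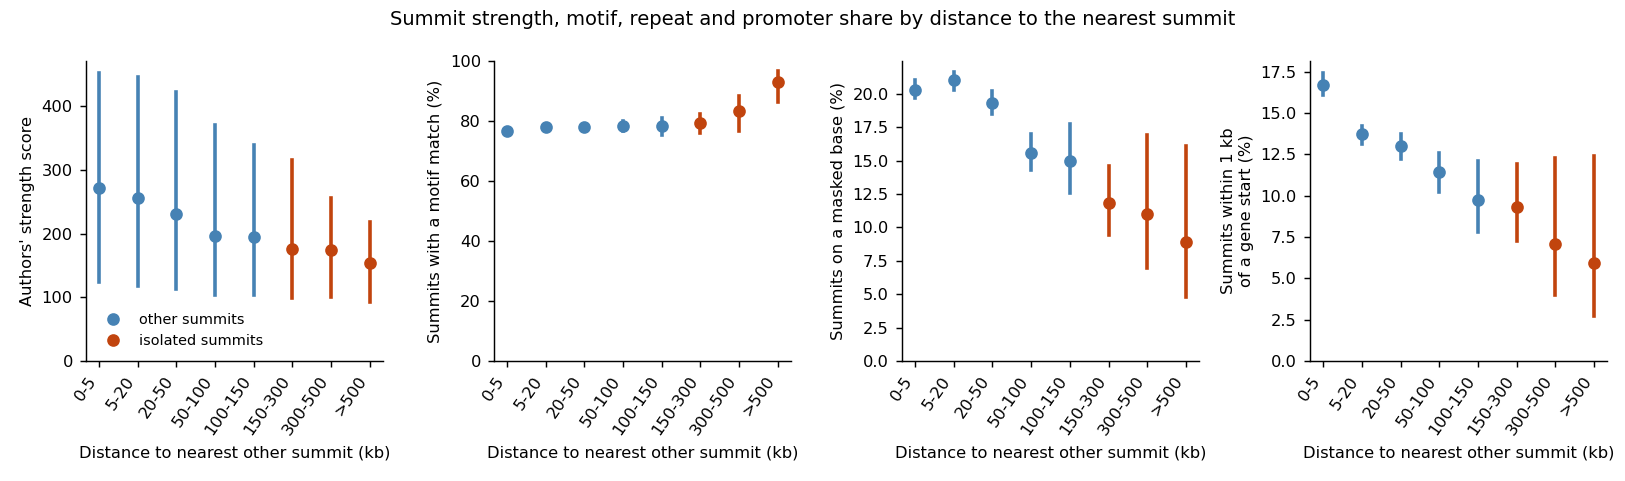
Strength (median and quartiles) and the shares of summits with a motif match, on a masked base and within 1 kb of a gene start (each with its 95% Wilson interval), against the distance to the nearest other summit in kb; red marks isolated summits. Median strength goes from 272.1 below 5 kb to 154.0 above 500 kb, and the motif share is between 76.6% and 79.4% up to 300 kb and 93.1% above 500 kb.

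The decline of strength with distance did not begin at the threshold. Median strength was 272.1 for summits with a neighbour within 5 kb. It was 195.6 where the nearest neighbour was 50 to 100 kb away, and for isolated summits 176.1 between 150 and 300 kb and 154.0 above 500 kb. The GC content of the 150 kb to each side, which also moved along this axis, had medians of 45.9%, 42.4%, 39.5% and 37.4% in the same 4 classes. Its part in the strengths was not tested.

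Of the 10 strongest isolated summits, 8 lay between genes. The strongest, at 71458419 to 71458746 on chromosome 13 (635.9), was 505143 bp from the nearest protein-coding start, that of Irx1, a homeobox regulator, and 29027 bp from the start of the lincRNA 1700112M02Rik. Its neighbours were 210 and 490 kb away. The next, at 13214909 to 13215269 on chromosome 12 (624.0), was 34120 bp from the start of Ddx1, an RNA helicase gene. Those nearest to St3gal1 (592.7), Olfr275 (585.2), 4930452B06Rik (561.2), Rgs2 (558.2), Ebf1 (557.1) and Tle4 (556.7) were also intergenic. The Rgs2 summit was 2652 bp from the start of this gene, a regulator of G protein signalling. The remaining 2 were in introns of Ankfn1 (573.0) and Dscaml1 (556.8), and the Dscaml1 summit alone among the 10 had no motif match. At a reciprocal overlap of 50%, all 10 had a partner peak in the pool F list, and 5 had one in the pool E list. Those without a pool E partner at that overlap were the summits named by Irx1, Ddx1, St3gal1, Ebf1 and Dscaml1. Over all isolated summits the pool E share was 87.1% at that overlap and 98.7% at an overlap of 1 bp. In the strongest of the 5 classes it was 85.7% of isolated and 84.4% of other summits at 50%.

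A motif match was somewhat more frequent at isolated summits, a difference that did not hold once location or GC content was taken into the fit. A match was found at 701 of 858 isolated summits, 81.7% (79.0 to 84.1), and at 77.5% (77.1 to 77.9) of other summits, with 77.6% over all autosomal summits. The difference was 4.17 percentage points (1.42 to 6.65), with an odds ratio of 1.29 (1.04 to 1.61) and an adjusted p of 0.022 by logistic regression over summits with errors clustered by autosome. The share was higher in 14 of 19 autosomes. With strength as a covariate the odds ratio was 1.58 (p = 5.1e-05, n = 41000 summits), and in the combined list it was 1.48. In windows displaced by 2000 bp to each side, 2.10% of those beside isolated summits and 3.23% of the rest had a match. The call was lost with the location class as a covariate (odds ratio 1.14, p = 0.29, n = 41000 summits) and among summits matched in GC content, meaning those whose GC share within 150 kb lay between the quartiles of the isolated summits (1.08, p = 0.41, n = 428 isolated and n = 3698 other summits). The direction turned when the GC content around the summit, within 100 bp to each side, was a covariate (0.992, p = 0.95, n = 41000), and when only peaks at or above the median strength were used (0.960).

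The location of a summit moved with the motif share. Among isolated summits, 84.2% of the 500 between genes, 83.1% of the 266 in introns and 58.9% of the 73 within 1000 bp of a gene start had a match. The same shares among other summits were 83.0%, 80.7% and 56.2%. A 20-base weight matrix learned on other summits, with a cut-off passed by 5% of displaced windows, was passed at 89.6% of isolated and 86.3% of other summits. Match and summit lay close together in both groups, with a median of 7.5 bp between them in isolated and 6.5 bp in other summits.

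At the same quality of match, isolated summits were the weaker group. With an exact match the median strength was 263.9 (quartiles 149.9 and 399.4, 119 summits) against 450.9 (319.7 and 525.8, 4896 summits). With 1 mismatch it was 199.8 against 319.6, with 2 it was 138.8 against 202.4, and without a match 116.8 against 145.8. Of the 64 exact versions of the 14 bases found at summits, 46 occurred at isolated summits and 6 of these at 5 or more. In 6 of those 6, the median strength at isolated summits was below that at other summits with the identical 14 bases. The 3 versions most frequent at isolated summits are printed here.
Version at 8 isolated and 242 other summits: CCAGCAGAGGGCAG
Version at 7 isolated and 187 other summits: CCACTAGAGGGCAG
Version at 7 isolated and 189 other summits: CCACTAGGTGGCAG
The first had medians of 167.6 at isolated and 407.9 at other summits, the second 257.1 and 458.4, and the third 268.4 and 469.9. Among the remaining 3 versions the medians lay closer together in 2, at 412.4 and 477.9 and at 383.6 and 463.3, and were 200.5 and 442.8 in the other. Restricting both groups to a GC content within 150 kb between the quartiles of the isolated summits left 51 isolated summits with an exact match, with a median of 237.1, and 450 other summits, with a median of 370.7. All strengths are the authors' score, and these comparisons are descriptions.

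**Figure D2:**
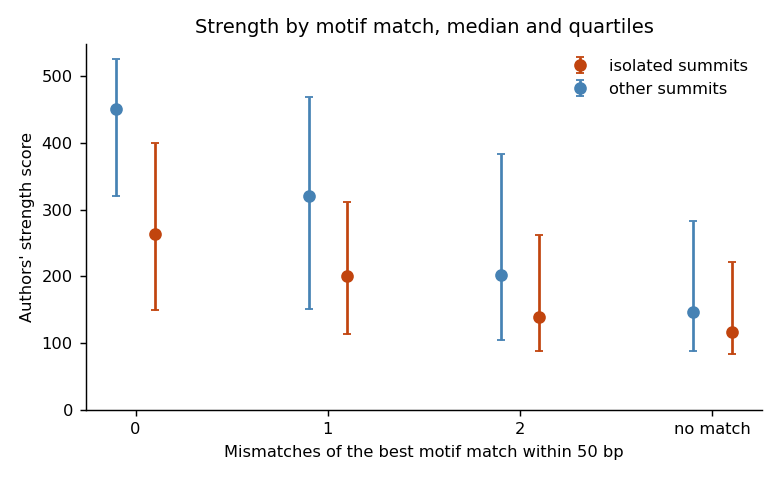
Strength (the authors' score; points are medians, bars run between quartiles) by the number of mismatches of the best motif match, for isolated (red) and other summits (blue). The isolated median is lower in each of the 4 classes, 263.9 against 450.9 for exact matches and 116.8 against 145.8 without a match.

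**Figure D3:**
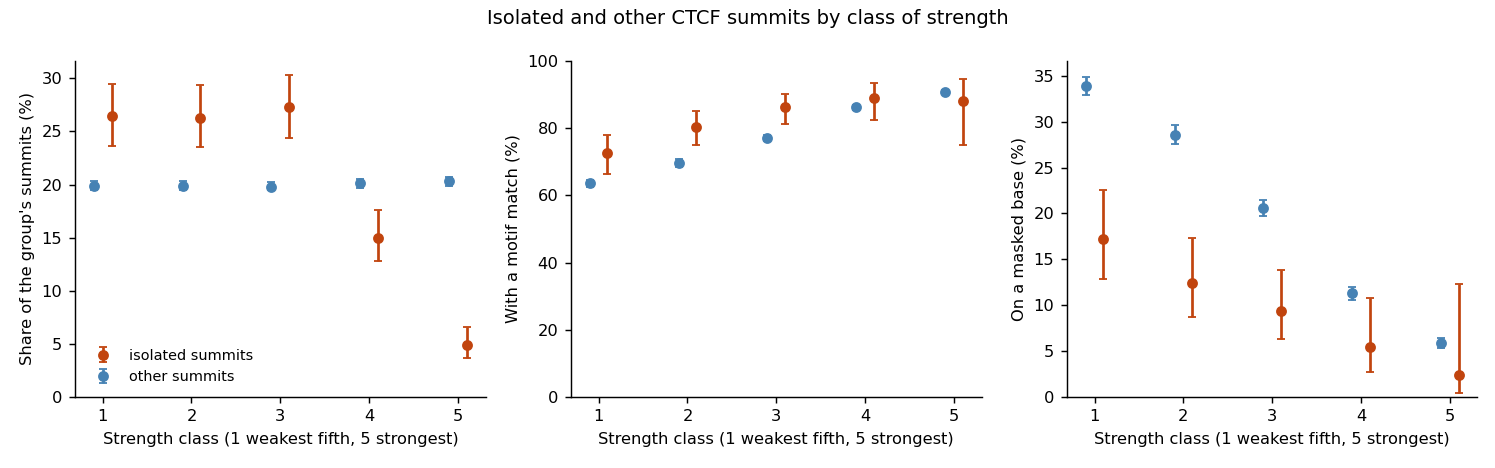
Share of each group in 5 classes of strength (left), share with a motif match (middle) and share on a masked base (right), with 95% Wilson intervals, for isolated (red) and other summits (blue). The motif share is 72.7% against 63.6% in the weakest class and 88.1% against 90.8% in the strongest, and the masked share of isolated summits is the lower point in all 5 classes, with intervals apart in the weakest 3.

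Within classes of strength, the motif share of isolated summits was 72.7%, 80.5%, 86.3%, 89.1% and 88.1% from the weakest to the strongest class. In other summits it was 63.6%, 69.7%, 77.0%, 86.2% and 90.8%. The intervals of the 2 groups were apart in the first 3 classes and overlapped in the strongest 2.

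The motifs also differed in their letters. Counting from the first of the 14 bases, position 5 was T in 48.6% of the 701 matches at isolated summits and in 31.6% of the 31121 at other summits. Position 9 was T in 42.5% and 30.9%, and position 4 was C in 54.8% and 45.7%. Bases beyond the 14 differed too: position 15 was C in 30.4% and 40.7%, and position 17 was G in 28.5% and 39.2%. GC content within 100 bp of the summit had medians of 44.5% and 48.8%, and its part in the letters was not tested. Matches at masked bases have another composition: among other summits position 5 was A in 75.4% of 6986 masked matches and in 13.7% of 24135 unmasked ones. In unmasked matches alone, position 5 was T in 52.6% of 623 at isolated and 38.3% at other summits, and position 9 was T in 46.1% and 37.2%. Position 4 was C in 58.7% and 55.4% of unmasked matches, a smaller difference than over all matches.

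For 157 isolated summits no match was found within 50 bp, and their median strength was 116.8. The 3 strongest of these in introns or between genes are shown because peaks of this strength usually had a match; none of them reached the weight matrix cut-off either. Each is the plus strand from 50 bases before to 50 bases after the summit, with strengths of 556.8, 495.4 and 494.1. No capitals are used, since no stretch with at most 2 mismatches was found. Stretches with more mismatches were not counted, so a weaker likeness to the motif may be present.
Dscaml1, chr9:45590032-45590132, plus strand: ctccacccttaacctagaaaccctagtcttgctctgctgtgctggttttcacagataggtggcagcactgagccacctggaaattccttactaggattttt
Sox9, chr11:112779967-112780067, plus strand: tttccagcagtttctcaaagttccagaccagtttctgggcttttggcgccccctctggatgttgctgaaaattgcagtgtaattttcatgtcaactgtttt
Tcerg1l, chr7:138084224-138084324, plus strand: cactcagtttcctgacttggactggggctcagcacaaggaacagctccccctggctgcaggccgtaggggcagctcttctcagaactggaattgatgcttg

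Few isolated summits lay in repeats, although their surroundings held more repeat sequence. Mouse SINE elements of the B2 family are known carriers of CTCF motifs. The summit base was soft-masked in the reference in 97 of 858 isolated summits, 11.3% (9.36 to 13.6), and in 20.0% (19.6 to 20.4) of other summits, with 19.8% over all. The difference was -8.66 percentage points (-10.6 to -6.33), the odds ratio 0.511 (0.423 to 0.617) and the adjusted p 9.8e-12 by the same regression, and the share was lower in 19 of 19 autosomes. Within 150 kb to each side, the masked share of all bases had a median of 35.7% around isolated and 28.3% around other summits. The masked share was 12.2% against 19.8% for summits between genes and 10.9% against 24.9% for those in introns. Among summits matched in GC content within 150 kb it was 11.0% against 13.4%, and the call was lost (odds ratio 0.796, p = 0.099, n = 428 and n = 3698).

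Isolated summits were also less often at gene starts. Within 1000 bp of an annotated start lay 73 of them, 8.51% (6.82 to 10.6), against 14.3% (14.0 to 14.7) of other summits and 14.2% of all. The difference was -5.84 percentage points (-7.56 to -3.75), the odds ratio 0.555 (0.398 to 0.775) and the adjusted p 8.3e-04, and the share was lower in 16 of 19 autosomes. Gene starts were scarce in the surroundings: 530 isolated summits, 61.8%, and 8.99% of other summits had no protein-coding start within 150 kb. With the number of starts within 150 kb as a covariate the odds ratio was 0.844 (p = 0.28, n = 41000), and among summits matched in GC content it was 0.735 (p = 0.18, n = 428 and n = 3698), so the call was lost in both. Of isolated summits, 58.3% lay between genes, 31.0% in introns and 2.21% in exons, against 34.0%, 44.7% and 6.97% of other summits.

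The 10 strongest of these 73 promoter summits were at starts of different kinds. Those at protein-coding starts included Mtmr6, a myotubularin-related phosphatase gene (555.1, 174 bp from the start), Slitrk5, a neuronal membrane protein gene (498.5, 237 bp), and Sema3d, a secreted semaphorin gene (357.1, 97 bp). The lincRNA starts were those of Gm47710 (527.4), Gm38584 (489.2) and Gm13974 (423.7). The pseudogene starts were those of Gm43855 (415.0), Gm27158 (395.9) and Olfr1069-ps1 (383.5). Mtmr6 and Sema3d had no motif match. The weakest isolated summit of all was also at a start, that of the phosphatase gene Ptprk (41.91), with no match, followed by introns of Kcnc2 (43.13) and Dynlt1b (43.78).

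**Figure D4:**
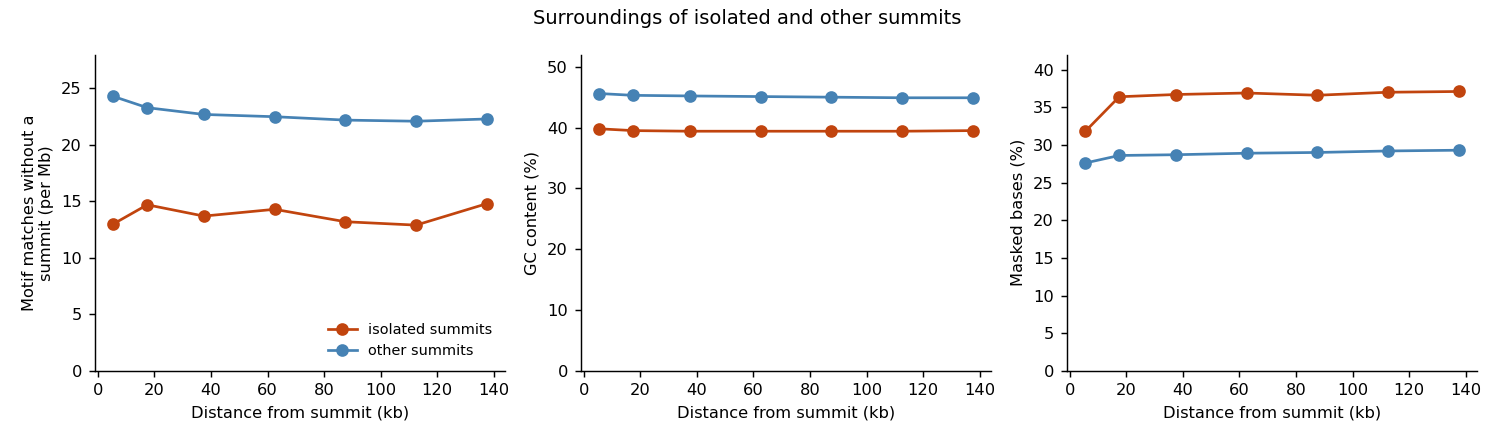
Motif matches with no mismatch or 1 that had no summit (per Mb of known sequence), GC content and masked bases, by distance from the summit in kb, for isolated (red) and other summits (blue). The matches run from 12.9 to 14.8 per Mb around isolated summits and from 22.1 to 24.3 around others, with GC content of 39.4% to 39.8% and 44.9% to 45.6%. Flanks shared by several summits are counted for each of them.

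The surroundings of isolated summits held fewer motifs, apart from those that the rule itself removes. From 1 kb to 150 kb on each side, matches with no mismatch or 1 and no summit of the list within 50 bp occurred at 13.8 per Mb around isolated and 22.6 per Mb around other summits, a ratio of 0.613. The density hardly varied with distance, from 12.9 to 14.8 per Mb. GC content was lower at every distance, with a median over the whole window of 39.0% against 45.0%, and its part in the motif density was not tested. Flanks of neighbouring summits overlap and were counted for each summit. Counting overlapping flanks once, the flanks of isolated summits covered 244 Mb. They held 13.9 matches per Mb with no mismatch or 1 and no summit, against 18.2 elsewhere on the autosomes, a ratio of 0.763. Of exact matches without a summit they held 86, 0.353 per Mb. Elsewhere on the autosomes there were 0.562 per Mb without a summit, and 80.6% of all exact matches there had one.

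These 86 exact matches were not all free of signal in the other lists. A summit of the combined list lay at 14 of them, one of the pool E list at 14 and one of the pool F list at 1, and a candidate of the ranked list, to which no threshold had been applied, lay at 26. Of the 86, 27 were masked, and, with 1 autosome left out of this count, 39 were unmasked and at no listed peak or candidate. Of the 39, 3 are shown, the first, middle and last in chromosome order, since their 14 bases are as good a match as those at the isolated summits.
Match without a listed peak, chr1:5867724-5867757, plus strand: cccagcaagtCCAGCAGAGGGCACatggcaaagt
Match without a listed peak, chr10:74321428-74321461, minus strand: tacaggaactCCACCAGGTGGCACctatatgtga
Match without a listed peak, chr17:6554008-6554041, minus strand: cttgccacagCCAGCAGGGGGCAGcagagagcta

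Among neighbouring summits that lay far apart, the share of convergent pairs was lower where an isolated summit was one of the pair. Motifs are called convergent when the left one is on the plus strand and the right one on the minus strand, divergent in the reverse case and tandem when they share a strand. Of 905 pairs more than 150 kb apart with an isolated summit and 2 motifs, 29.9% (27.1 to 33.0) were convergent, 52.7% tandem and 17.3% divergent. Of 982 pairs also more than 150 kb apart but without one, 40.4% (37.4 to 43.5) were convergent, 45.5% tandem and 14.1% divergent. The latter were closer together, with 702 of 982 at 150 to 300 kb against 410 of 905. By the rule, each of their summits also had another within 150 kb on its other side. At 150 to 300 kb the shares were 27.6% and 39.9%, and at 300 to 500 kb they were 29.2% and 44.6%. Above 500 kb they were 33.9% and 38.2%, with overlapping intervals. In pairs of which both summits were isolated 25.4% (20.2 to 31.5) were convergent. With both summits at or above the median strength of 247.0, the shares were 27.5% (20.8 to 35.3) of 142 pairs and 47.1% (41.1 to 53.2) of 257. Pairs share summits, so these shares carry no test.

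**Figure D5:**
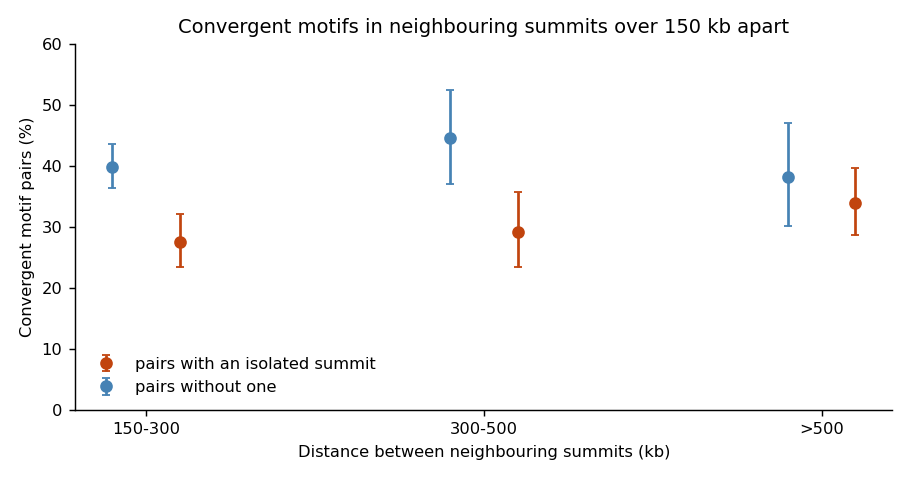
Share of convergent motif pairs (%), with 95% Wilson intervals, among neighbouring summits more than 150 kb apart, by distance in kb, for pairs with an isolated summit (red) and pairs without one (blue). The red points are at 27.6%, 29.2% and 33.9% and the blue at 39.9%, 44.6% and 38.2%.

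The motif at an isolated summit pointed to the nearer of its 2 neighbours in 301 of 688 cases, 43.8% (40.1 to 47.5). The motifs were on the plus strand in 50.6% of cases.

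Most isolated summits were also found in the other lists made from the same reads. At a reciprocal overlap of 50%, 849 had a partner in the combined list, 99.0% against 97.4% of all autosomal summits, and 747 had one in the pool E list, 87.1% against 87.7%. In the pool F list 508 had one, 59.2% (55.9 to 62.4) against 66.2% of all. Both pool lists held a partner for 452, 52.7% (49.3 to 56.0) against 59.8% of other summits. Neither did for 55, 6.41% against 5.71%. Strength moved with the pool F share: in the weakest class 17.6% of isolated and 15.8% of other summits had a pool F partner, and in the strongest 100% and 98.5%. In the ranked list, the log2 ratio of the first to the second input had a median of 1.17 in isolated and 1.03 in other summits, and the −log10 of the IDR, the authors' measure of reproducibility, had medians of 3.27 and 3.29.

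Isolation itself depended on the list. No other summit lay within 150 kb in the combined list for 654 isolated summits (76.2%), in the pool E list for 620 (72.3%) and in the pool F list for 848 (98.8%), and in all 3 lists for 582 (67.8%). When every ranked candidate was counted, 64 (7.46%) had none within 150 kb, and the median number was 3, against 21 around other summits.

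The genes that held isolated summits were long. Of the 858, 248 (28.9%) lay inside a protein-coding gene, against 54.2% of other summits, and the host gene had a median length of 482 kb against 78.2 kb. Genes over 500 kb hosted 119 of the 248, 48.0% (41.8 to 54.2), against 7.56% of other summits inside genes. The 248 lay in 210 genes, 29 of which held more than 1. Lsamp, a neuronal cell adhesion gene of 2197 kb, held 5, with strengths of 74.21, 278.6, 360.8, 399.8 and 139.0. Macrod2 and Pcdh15 held 4 each, with strengths of 80.15 to 437.9 and 96.57 to 232.9.

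Some long hosts have a known place in muscle, and were picked out after their values were seen. Sgcd codes for delta-sarcoglycan, a member of the dystrophin-associated complex of the muscle membrane, and its 1093 kb held 3 isolated summits at 332.5, 283.6 and 185.7. Ryr2, the calcium release channel best known from heart muscle, held 2 in 554 kb, at 201.9 and 215.9. Esrrg, a nuclear receptor gene of oxidative metabolism, held 2 weak ones at 60.07 and 71.87. Neither had a motif match or a pool F partner at 50% reciprocal overlap, and the one at 71.87 had no pool E partner either.

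Over 20780 autosomal protein-coding genes, 430, or 2.07%, had an isolated summit in the gene or within 50 kb of its start, and a longer gene offers more room for one. The share was 1.36% for genes below 20 kb, 1.15% for those of 20 to 100 kb and 4.97% for those of 100 to 500 kb. Above 500 kb it was 40.4% of 218 genes. Among 50 contractile and metabolic genes of muscle there was none (0%, upper bound 7.13%), while 49 of them had some CTCF summit. Among 28 housekeeping genes there was none (upper bound 12.1%) and all 28 had some summit. Among 34 regulators of muscle formation and satellite cells there was 1, Sox6, a transcription factor gene, at 135.4 in an intron.

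The remaining lists ranged from 2.44% to 66.0% of their genes, and no difference between lists was tested. Of 47 very long neuronal genes 31 had an isolated summit, the strongest being in Cntnap2 (460.1), Macrod2 (437.9) and Dlg2 (401.4), and their median length was 1135 kb. Of 23 glutamate receptor genes 6 had one, led by Grm8 (261.3), Grm5 (212.3) and Gria4 (196.7). These 23 genes are also long, with a median of 378 kb against 17.6 kb over all protein-coding genes. Of 27 cadherins and non-clustered protocadherins, with a median length of 128 kb, 3 had one, Cdh2 (456.2), Cdh12 (157.0) and Pcdh18 (143.9). Of 54 developmental regulators that lie in gene deserts 5 had one, the strongest at Sox9 (495.4), Sox11 (310.2) and Dach1 (271.9), and the Sox9 and Sox11 peaks were the only summits counted at these genes. Of 1127 olfactory receptor genes 61 (5.41%) had one, and 304 had any summit. The strongest were at Olfr996 and Olfr998, which share a summit of 448.1, and at Olfr450 (400.3). Of 328 vomeronasal receptor genes 8 (2.44%) had one, the strongest at Vmn2r80 (420.0), Vmn1r90 (237.1) and Vmn1r179 (219.7), and 37 had any summit. Receptor genes of these families lie in clusters and share summits, so their counts are not independent.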

How the data were processed

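Members, lists and tests were chosen with earlier results of these data known. The authors deposited narrowPeak lists: each peak has a strength score whose scale was not stated, and the ranked list gives the −log10 of the IDR and the strength score of each input, per the file headers and labels. Peaks were called on merged technical replicates against mm10. The aligner and peak caller are not given in the sources used here. The summit was the peak start plus the deposited summit offset, and 1163 peaks outside the autosomes were left out. Motifs were found by counting mismatches on both strands of GRCm38, genes came from GENCODE M21, and masked bases are lower case in that genome. Overlaps used bedtools 2.31.1. The motif, promoter and masked shares were tested by logistic regression (statsmodels 0.14.6), errors clustered by the 19 autosomes, with Benjamini-Hochberg adjustment over the 3. The motif search and the regression intervals were checked on simulated data with a generic outcome. Isolation was assigned there without regard to position, and the 3 shares themselves were not simulated. The p-values treat summits as units and measure no difference between animals. Named by rule were the 10 strongest members, the 5 most isolated, the 5 on each side of the threshold, the 10 strongest at gene starts and up to 3 genes per list; the 3 weakest and the repeated hosts were added later. One summit named by this rule is not reported here.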

Additional observations from a re-analysis of the deposited data

How the results depend on the processing

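No paired analysis was possible because the technical replicates were merged in every list and no sample has a list of its own. The number of isolated summits was 1606 at 100 kb, 544 at 200 kb and 256 at 300 kb. The odds ratio for a motif was 1.17 at 100 kb, 1.16 for exact matches, 1.14 with location as a covariate, 1.22 with location, strength and GC, and 1.08 within the GC quartiles, all without a call. It was 0.992 with GC as a covariate. Among peaks at or above the median strength, where isolation was assigned anew, it was 0.960. For promoters the odds ratio was 0.844 with gene starts as a covariate and 0.735 within the GC quartiles. For masked bases it was 0.796 within the GC quartiles. The calls were lost in all of these settings. The GC quartiles were chosen after seeing the data. The cause was not tested. With 1 autosome left out at a time, the odds ratios were 1.22 to 1.39 (motif), 0.502 to 0.595 (promoter) and 0.485 to 0.536 (masked), and the calls held. The ratio of the density of motifs without a summit was 0.495 for exact matches, 0.507 with up to 2 mismatches, 0.763 over distinct flanks and 0.647 over their unmasked bases. The pool E share was 98.7% at an overlap of 1 bp and 74.4% at 80%, and the pool F share 73.3% and 12.9%. Depth is unknown, so sites below the authors' threshold cannot be told from sites without CTCF, and each flank is empty only at that threshold.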
